A study of Mus musculus with 6 samples.

Results

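Notch signalling is a contact-dependent pathway in which a ligand of the Jagged or Delta-like family on the surface of a cell binds a Notch receptor on its neighbour. The bound receptor is cut by an ADAM protease and then by gamma-secretase, and the freed intracellular part joins the DNA-binding protein RBPJ and Mastermind co-activators to switch on genes such as those of the HES and HEY repressors. In the epidermis Notch activity is known for moving keratinocytes out of the basal layer into the spinous layer. The genes described here are 10 members of that pathway, namely the receptors Notch1, Notch2 and Notch3, the ligands Jag1, Jag2 and Dll1, the receptor-modifying glycosyltransferase Lfng and the target genes Hes1, Hey1 and Heyl. They were chosen by name, as the array rows annotated with exactly 1 gene symbol that is among these 10. Each gene had 1 row, so they made up 10 of 19935 named genes and 10 of 28815 rows.

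The cells were primary keratinocytes of wild-type CD1 mice, kept in medium low in calcium, and all cultures received a retrovirus. Of these, 3 cultures were given a virus carrying caNFATc1, a human NFATc1 with mutations in its autoinhibitory domain that make this calcineurin-regulated transcription factor constitutively active. The other 3 cultures received the empty MSCV vector and are called vector control. RNA of each culture was measured on 1 microarray. The design text states that the replicates are biological. Unless said otherwise, the p-values reflect how far the differences within same-numbered pairs vary, with variances pooled in part over genes. Differences between cultures that both arrays of a pair share are left out of them.

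The deposited values are on the log2 scale and relative to the median of each row over the 6 arrays, so a value of 0 marks the middle of a gene's own 6 values. Differences between arrays can be read from them. Levels cannot, so no gene is compared with another by its level, and the keratinocyte label could not be checked against marker levels. Differences are caNFATc1 minus vector control, taken within pairs of arrays with the same replicate number, with the standard error (SE) of limma's fit that holds the replicate number as a blocking term. A gene is said to have risen or fallen only where the Benjamini-Hochberg adjusted p over all 19935 genes was under 0.05 in that fit. By this rule 6.11% of all genes were called, 3.73% higher and 2.38% lower. Without the block the share was 0.216%, and every gene of the Notch pathway or of the epidermal list that is called below rests on the pairing of the arrays. Replicate 1 stood apart in both groups: Xist, the RNA of the inactive X chromosome, was at least 5.97 log2 units below the other 4 arrays there. The known NFAT target Rcan1 was higher by 3.38 ± 0.10 (SE, n = 3 pairs, adjusted p = 6.85e-04). Mouse Nfatc1, whose row may not see the human transgene, differed by 0.04 ± 0.07 (adjusted p = 0.847).

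Among the 10 Notch genes the ligand gene Jag1 rose about 2.09-fold in caNFATc1 cells, and none of the others passed the test. The receptor genes Notch1 and Notch2 were higher and Notch3 was lower on all 3 caNFATc1 arrays than on all 3 vector control arrays, without passing. The target genes Hes1, Hey1 and Heyl differed by at most 0.11 in size, and their groups overlapped. The count was thus 1 of 10 called higher and 0 called lower, against the 6.11% called among all genes. Earlier results of these data were known when the members were chosen, so their counts are a description. At an unadjusted p under 0.05, limma with the block had 3 members higher and 1 lower. Among all genes that share was 21.5%, with 11.7% higher and 9.78% lower. The groups did not overlap for 4 of 10 members (3 higher and 1 lower), against 18.7% of all genes (9.64% higher and 9.09% lower), and the sign was the same in all 3 pairs for 5 of 10, against 42.9% of all genes. The median difference was 0.06 for the members and -0.01 for all genes.

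**Figure D1:**
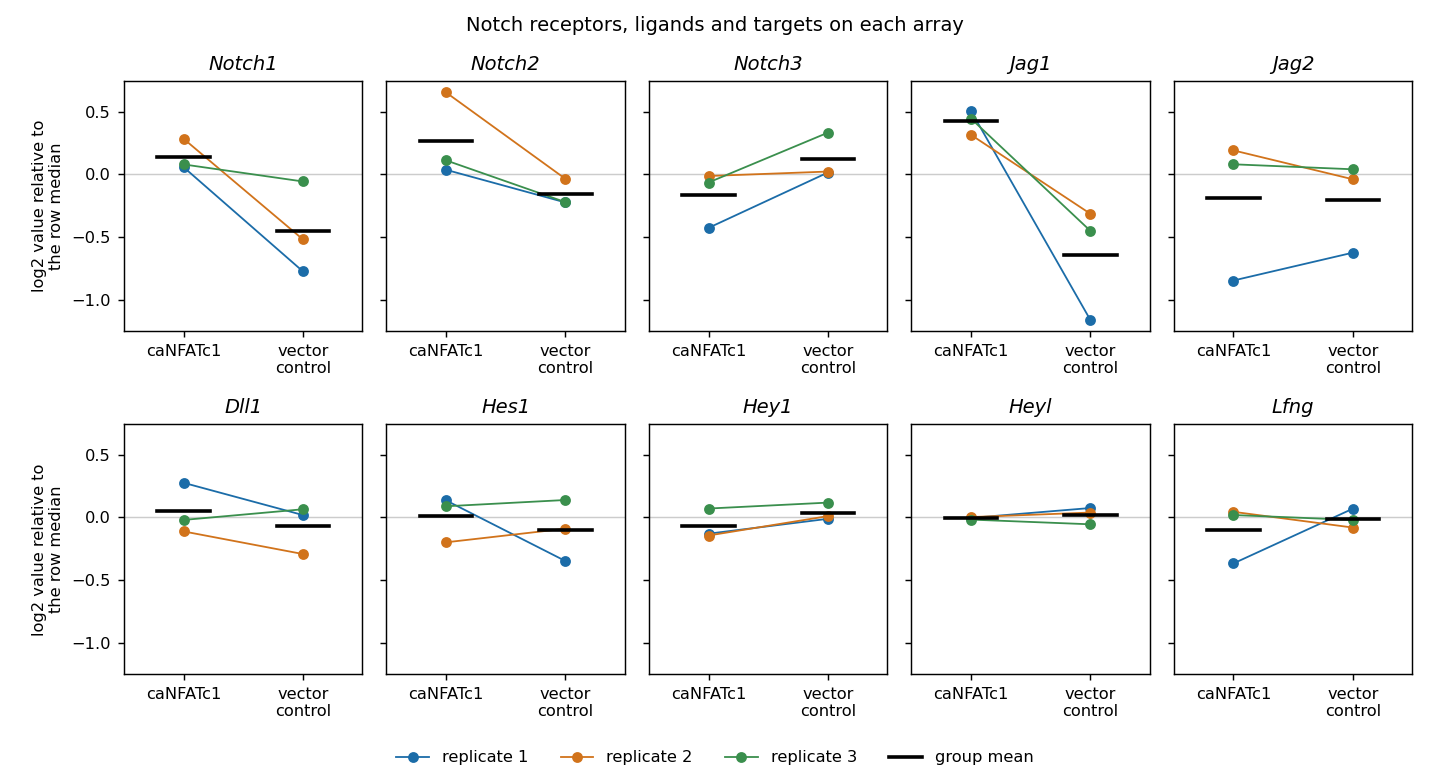
Log2 value relative to the row median (y axis) of the 10 Notch genes on each of the 6 arrays, caNFATc1 left and vector control right in each panel; points joined by a line share a replicate number and black bars are group means (n = 3 each). The groups are separate for Notch1, Notch2, Notch3 and Jag1, and Jag2 is low in replicate 1 of both groups.

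Of the 3 ligand genes Jag1 was called, and Jag2 and Dll1 were not. Jag1 encodes Jagged 1, a ligand that differentiating keratinocytes are known to carry. Its values were 0.50, 0.31 and 0.44 in caNFATc1 replicates 1, 2 and 3, against -1.16, -0.31 and -0.45 in the vector control replicates. The groups were 0.63 log2 units apart at their closest arrays, and the vector control arrays spread more widely (SD 0.45, n = 3) than the caNFATc1 arrays (SD 0.10, n = 3). The pair differences were 1.66, 0.63 and 0.89. The mean difference was 1.06 ± 0.19 (SE, n = 3 pairs, adjusted p = 0.039), with a 95% interval from 0.58 to 1.54. Jag1 did not pass without the replicate block (adjusted p = 0.135). It also did not pass when every row of the table was tested singly (adjusted p = 0.079 over 28815 rows, of which 2.03% were called). It did pass with any of the 3 pairs left out, at a difference of 0.76 without replicate 1, 1.28 without replicate 2 and 1.15 without replicate 3.

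Jag2 encodes the other Jagged ligand. It stood at -0.85, 0.19 and 0.08 in caNFATc1 cells and at -0.62, -0.04 and 0.04 in vector control cells. The low values were those of replicate 1 in both groups, and the replicates spread far more than the groups: the pair means ranged over 0.81, while the group difference was 0.02 ± 0.10 (adjusted p = 0.96, 95% interval -0.23 to 0.26). Dll1, a Delta-like ligand, stood at 0.28, -0.11 and -0.02 in caNFATc1 cells and at 0.02, -0.29 and 0.07 in vector control cells. Its groups overlapped, and the difference was 0.12 ± 0.09 (adjusted p = 0.534, interval -0.10 to 0.33). The intervals of Jag2 and Dll1 both end below 0.58, the lower end of the Jag1 interval. Whether either row was too dim to show a change cannot be read from values without levels.

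The promoter windows of the ligand that rose, of its paralogue that did not pass and of the receptor gene Notch2 are shown so that the sequence can be read beside these values. They come from RefSeq (GRCm38.p6) and run from 250 bases before to 50 bases after an annotated transcript start. They are printed in the direction of transcription, in lower case, with capitals for each match to GGAAA, the core that NFAT proteins bind, read on both strands.

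Jag1, chr2:137116471-137116770, minus strand: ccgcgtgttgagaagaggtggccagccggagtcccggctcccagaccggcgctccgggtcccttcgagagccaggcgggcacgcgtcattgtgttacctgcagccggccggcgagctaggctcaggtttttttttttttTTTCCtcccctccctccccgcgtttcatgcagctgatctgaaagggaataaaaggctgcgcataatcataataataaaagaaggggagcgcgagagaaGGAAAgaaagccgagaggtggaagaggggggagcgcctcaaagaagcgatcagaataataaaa

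Jag2, chr12:112929446-112929745, minus strand: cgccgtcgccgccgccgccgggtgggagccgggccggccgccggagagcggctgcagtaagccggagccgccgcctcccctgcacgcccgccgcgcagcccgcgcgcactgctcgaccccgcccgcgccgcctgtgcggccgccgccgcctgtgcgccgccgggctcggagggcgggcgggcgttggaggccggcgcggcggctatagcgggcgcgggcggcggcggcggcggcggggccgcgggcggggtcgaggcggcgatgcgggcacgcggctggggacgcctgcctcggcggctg

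Notch2, chr3:98013288-98013587, plus strand: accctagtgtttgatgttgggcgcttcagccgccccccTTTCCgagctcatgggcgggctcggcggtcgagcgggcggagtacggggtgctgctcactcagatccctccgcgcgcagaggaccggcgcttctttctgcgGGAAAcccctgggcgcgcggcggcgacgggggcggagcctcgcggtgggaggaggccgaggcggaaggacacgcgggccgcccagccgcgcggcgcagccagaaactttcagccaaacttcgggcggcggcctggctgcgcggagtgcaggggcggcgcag

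The Jag1 window held 2 such matches, beginning 111 and 13 bases before the transcript start, and the Notch2 window held 2, beginning 212 and 111 bases before it. The Jag2 window held 0, and so did the windows of Notch1, Notch3, Dll1 and Lfng. The printed windows thus include every gene with a match. Notch1, which differed by 0.59 against 0.43 for Notch2, held no match and is not printed. Whether a match goes with a rise was not tested. A match is common, being found in 61.3% of 32851 promoter windows of the same length. The motif TGGGAA, the core bound by RBPJ, which can overlap GGAAA, occurred 2 times in the Lfng window and in 25.6% of all windows. The motif TGANTCA, bound by AP-1 factors, occurred 1 time, in the second of the Dll1 windows, and in 7.81% of all windows. Windows were found for 7 of the 10 genes and not for Hes1, Hey1 and Heyl. These are matches of letters, and binding was not measured.

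The 3 receptor genes had differences of both signs, and none passed the test. Notch1, the main Notch receptor of mouse epidermis, stood at 0.06, 0.28 and 0.08 in caNFATc1 cells, against -0.77, -0.52 and -0.06 in vector control cells. All caNFATc1 arrays lay above all vector control arrays, but the gap in pair 3 was small: the pair differences were 0.83, 0.80 and 0.14. The mean difference was 0.59 ± 0.15 (adjusted p = 0.082, and 0.274 without the block). Without replicate 3 of both groups it was 0.82 and passed (adjusted p = 0.00493), whereas without replicate 1 or 2 it did not (0.209 and 0.236).

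Notch2, a receptor also made by keratinocytes, stood at 0.04, 0.65 and 0.11 in caNFATc1 cells and at -0.22, -0.04 and -0.22 in vector control cells. The high array was caNFATc1 replicate 2, and the groups were separate by 0.07 log2 units. The pair differences were 0.26, 0.69 and 0.33 and the mean was 0.43 ± 0.10 (adjusted p = 0.0687, and 0.388 without the block). With array weights in the fit the difference was 0.48 and passed (adjusted p = 0.0387). That fit called 1018 genes higher and 669 lower over all genes, against 744 and 475 without the weights.

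Notch3, a receptor best known from vascular smooth muscle, lay lower in caNFATc1 cells, at -0.43, -0.01 and -0.07, against 0.01, 0.02 and 0.33 in vector control cells. The groups were separate by only 0.03. The pair differences were -0.44, -0.04 and -0.40, with a mean of -0.29 ± 0.10 (adjusted p = 0.16, and 0.49 without the block). For these 3 receptors the intervals of the difference were 0.22 to 0.96, 0.18 to 0.67 and -0.53 to -0.05, each on 1 side of 0, although none passed over all genes.

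**Figure D2:**
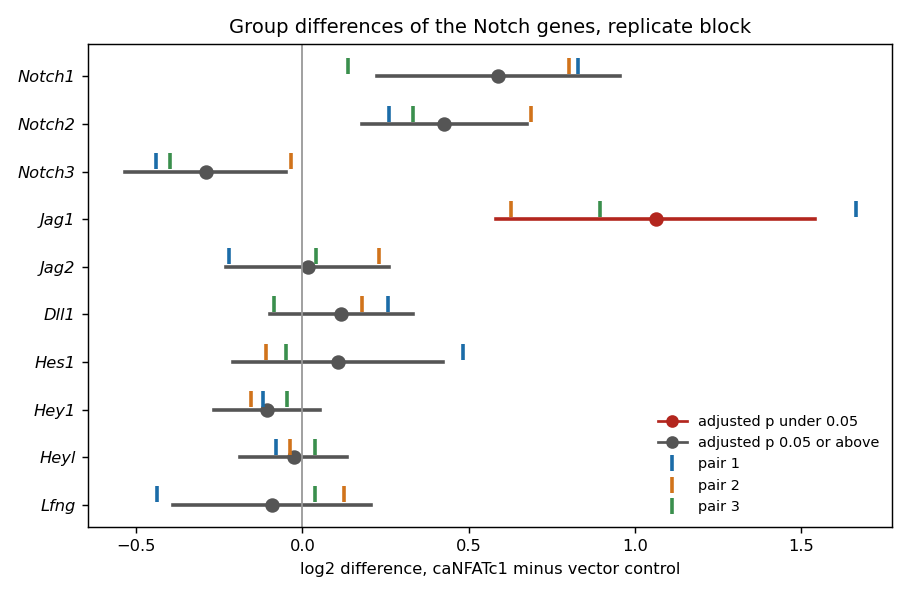
Log2 difference, caNFATc1 minus vector control (x axis), of the 10 Notch genes; dots are means of 3 pairs, bars are 95% intervals of limma's fit with the replicate block, red marks an adjusted p under 0.05 and short coloured ticks are the 3 pair differences. Jag1 at 1.06 is the only red point, and the target genes Hes1, Hey1 and Heyl lie within 0.11 of 0.

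Lfng encodes lunatic fringe, which adds sugars to Notch receptors and so changes which ligands they answer to. It stood at -0.37, 0.04 and 0.02 in caNFATc1 cells and at 0.07, -0.08 and -0.02 in vector control cells. Replicate 1 alone of the caNFATc1 arrays was low, and the sign differed between pairs (-0.44, 0.13 and 0.04). The mean difference was -0.09 ± 0.12 (adjusted p = 0.769, interval -0.39 to 0.21).

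The target genes showed no shared direction. Hes1, a repressor that Notch induces in many tissues and that holds spinous cells in their state, stood at 0.14, -0.20 and 0.09 in caNFATc1 cells and at -0.35, -0.09 and 0.14 in vector control cells. The groups overlapped, and only pair 1 was positive (0.48, -0.11 and -0.05). The mean was 0.11 ± 0.13 (adjusted p = 0.731, interval -0.21 to 0.42). Without replicate 1 the sign turned, to -0.08.

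Hey1, a related repressor, stood at -0.13, -0.14 and 0.07 in caNFATc1 cells and at -0.01, 0.01 and 0.12 in vector control cells. It was lower in all 3 pairs, by 0.05 to 0.15, while the groups overlapped. The difference was -0.11 ± 0.06 (adjusted p = 0.431, interval -0.27 to 0.05). Heyl, the third HEY-type gene of the mouse, hardly varied: its 6 values ran from -0.05 to 0.08, and the difference was -0.03 ± 0.07 (adjusted p = 0.892, interval -0.19 to 0.14). The intervals of Hes1, Hey1 and Heyl reach no higher than 0.42, which is below the lower end of the Jag1 interval. Because levels are lost in these values, a row too dim to show a change could not be told from an unchanged gene.

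Across the 6 arrays Notch1 varied most like Jag1 among the members (Pearson r = 0.86, 6 arrays), and Hes1 and Heyl were the most opposed (r = -0.84). Heyl hardly varied, from -0.05 to 0.08, so its r rests on very small differences. These values include the group difference and the shared replicates, and are a description. Over all genes the patterns most like that of Jag1 were those of Ngly1 (r = 0.995), which encodes an enzyme that removes sugars from misfolded proteins, the vesicle tethering gene Vps53 (r = 0.994) and the gap junction gene Gja1 (r = 0.993). Gja1 rose by 1.14 ± 0.17 (adjusted p = 0.0256, and 0.136 without the block), while Ngly1 and Vps53 differed by 0.29 ± 0.08 and 0.37 ± 0.08 without passing (adjusted p = 0.0921 and 0.0526).

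Other parts of the pathway were followed in a list of 73 genes, of which 70 had a row of their own. In caNFATc1 cells 7 of the 70 rose and 0 fell, which is 10% of the list against 6.11% of all genes. The list was drawn up with earlier results of these data known, so its counts are a description. At an unadjusted p under 0.05, limma with the block had 19 higher and 4 lower, against 11.7% and 9.78% of all genes. The median difference of the list was 0.04, against -0.01 for all genes, and the groups did not overlap for 27.1% of the list against 18.7% of all genes. Without the block 0 of the 70 passed, with 16 at an unadjusted p under 0.05, a level that 12.7% of all genes reached in that fit. Without replicate 1 of both groups 4 genes passed higher and 1 lower. Over all genes 509 then passed higher and 202 lower, against 744 and 475 with every pair.

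Of 9 genes of the HES, HEY and related basic helix-loop-helix repressors, 2 rose, against 3.73% of all genes. Hes6, whose protein is known to antagonise HES1, stood at 1.26, 0.49 and 0.84 in caNFATc1 cells, against -0.49, -0.75 and -0.64 in vector control cells. The pair differences were 1.75, 1.24 and 1.47, and the mean was 1.49 ± 0.11, a 2.81-fold change (adjusted p = 0.00596, and 0.0585 without the block). Bhlhe40, a repressor of the related DEC type that also takes part in the circadian clock, stood at 0.27, 0.41 and 0.88 in caNFATc1 cells and at -1.10, -0.31 and -0.27 in vector control cells, a difference of 1.08 ± 0.13 (adjusted p = 0.0156, and 0.186 without the block). The Notch targets Hey2 and Hes5 differed by 0.21 and -0.07 without passing (adjusted p = 0.133 and 0.795).

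In the nuclear complex 2 of 20 genes rose, against 3.73% of all genes. Kat2b encodes PCAF, an acetyltransferase that can act with the Notch complex, and stood at 1.12, 0.36 and 0.69 in caNFATc1 cells, against -0.36, -0.57 and -0.67 in vector control cells. Its difference was 1.26 ± 0.12 (adjusted p = 0.00859, and 0.0788 without the block). Tle4 encodes a Groucho-type co-repressor, of the family that HES proteins recruit, and stood at 0.29, 0.50 and 1.15 in caNFATc1 cells and at -1.0, -0.29 and -0.42 in vector control cells. Its difference was 1.22 ± 0.15 (adjusted p = 0.0158, and 0.161 without the block). Hes6, Bhlhe40, Kat2b and Tle4 each passed with any of the 3 pairs left out. Rbpj, the DNA-binding partner of all Notch receptors, differed by 0.22 ± 0.07 and the co-activator gene Maml3 by 0.46 ± 0.11 without passing (adjusted p = 0.15 and 0.0775).

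Smaller rises were called in 3 further roles. Aph1b, a subunit of gamma-secretase, rose by 0.39 ± 0.06 (adjusted p = 0.0313, and 0.137 without the block). It was 1 of 9 protease genes, of which 8 had a positive difference, against 47.4% of all genes. Its near-identical neighbour Aph1c, whose probes may share signal with it, differed by 0.35 ± 0.08 (adjusted p = 0.0728). Epn2, an epsin of the endocytic machinery that pulls on bound ligands, rose by 0.47 ± 0.09 (adjusted p = 0.0447, and 0.294 without the block). Numb, an adaptor that sends Notch receptors for degradation, rose by 0.35 ± 0.06 (adjusted p = 0.0385, and 0.334 without the block). The call of Epn2 was lost without replicate 1 or 3 and under quantile normalization, and those of Aph1b and Numb were lost without any of the 3 pairs. Itch, a ubiquitin ligase that acts with Numb, differed by 0.30 ± 0.07 (adjusted p = 0.0624), and it passed with array weights (0.28, adjusted p = 0.0499).

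The 6 other receptors and ligands, among them Notch4 and Dll4, all had negative differences, none of which passed by limma at either the adjusted or the unadjusted level (range -0.35 to -0.02). Of 7 genes of the sugar-adding enzymes 6 had a negative difference and 0 passed. By limma with the block 2 of them were lower at an unadjusted p under 0.05, against 9.78% of all genes. Among all genes 10483 of 19935 had a negative difference. Nrarp, a feedback inhibitor that Notch itself induces, is named here because its values had been seen. It stood at -0.23, 0.05 and -0.05 in caNFATc1 cells, against -0.07, 0.89 and 0.43 in vector control cells, a difference of -0.49 ± 0.13 (adjusted p = 0.0951, and 0.484 without the block). It was the gene that passed lower without replicate 1, at -0.66 (adjusted p = 0.0495), and with array weights, at -0.59 (adjusted p = 0.0367).

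**Figure D3:**
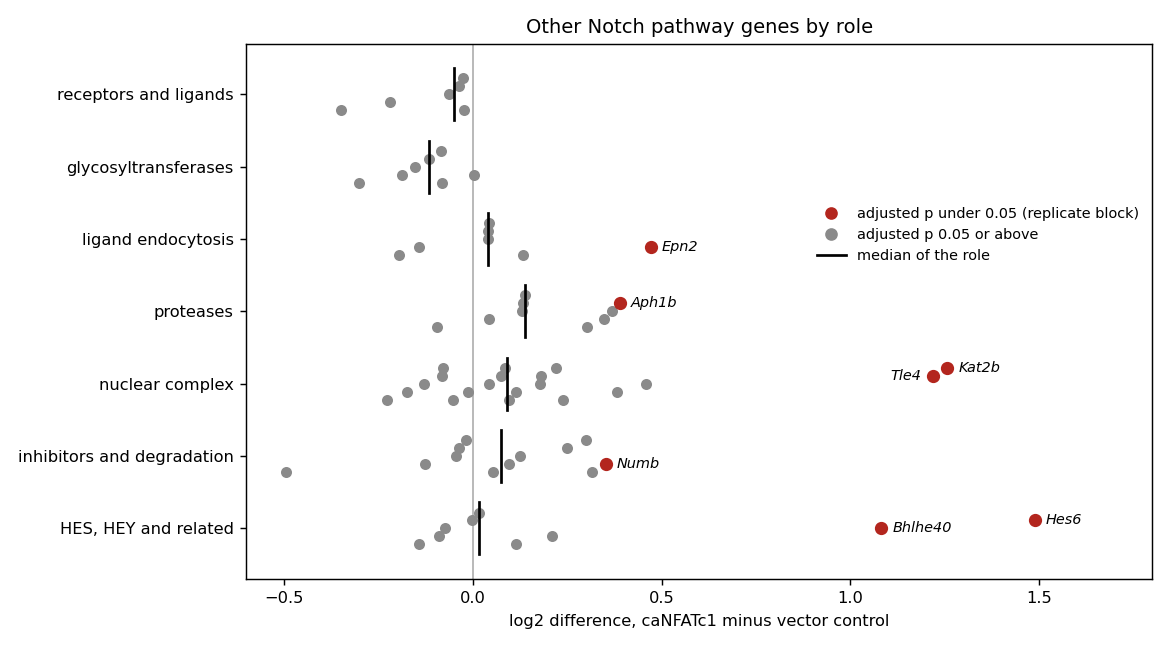
Log2 difference, caNFATc1 minus vector control (x axis), of 70 other Notch pathway genes in 7 roles (y axis, points spread vertically for legibility); red marks an adjusted p under 0.05 with the replicate block and black lines are the median of each role. The 7 red points are all on the positive side, with Hes6, Kat2b, Tle4 and Bhlhe40 above 1.

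Epidermal genes, from the basal layer to late differentiation, that Notch is known to act on or beside were followed in a list of 15. Of these, 12 had a row of their own. In caNFATc1 cells 2 rose and 3 fell, against 3.73% and 2.38% of all genes. A negative difference was seen for 10 of the 12, against 10483 of all 19935 genes, and the median of the list was -0.13. The list was drawn up with the fall of Ivl and Grhl3 already known, so its count is a description. Without the block 0 passed, with 7 of the 12 at an unadjusted p under 0.05, against 12.7% of all genes. Of the genes that rose, Tfap2a encodes an epidermal AP-2 transcription factor. It stood at 0.71, 0.10 and 0.01 in caNFATc1 cells and at -0.01, -0.56 and -0.59 in vector control cells, and its 3 pair differences were alike (0.71, 0.66 and 0.60). The mean was 0.66 ± 0.07 (adjusted p = 0.00983, and 0.334 without the block). Trp63, the transcription factor of basal keratinocytes that opposes Notch, rose by 0.42 ± 0.08 (adjusted p = 0.0444, and 0.322 without the block), a call lost without any of the 3 pairs and with arrays centred on their medians.

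Ivl, which encodes the cornified envelope precursor involucrin, stood at -0.60, -0.17 and -0.49 in caNFATc1 cells, against 0.17, 0.92 and 1.36 in vector control cells. Its groups were separate and the pair differences were -0.77, -1.09 and -1.85. Grhl3, a transcription factor of late differentiation, stood at -0.93, 0.06 and -0.32 in caNFATc1 cells and at -0.06, 0.75 and 1.01 in vector control cells, so its groups overlapped although every pair was lower, by 0.69 to 1.32. Cebpb, a transcription factor of the spinous layer, fell by 0.43 ± 0.07 (adjusted p = 0.031, and 0.242 without the block), a call lost without any of the 3 pairs. The calls of Ivl and Grhl3 (adjusted p = 0.03 and 0.019) were lost without the block (0.183 and 0.343) and under quantile normalization (0.0892 and 0.0675). The spinous keratin genes Krt1 and Krt10 differed by -0.13 ± 0.10 and -0.10 ± 0.07 (adjusted p = 0.568 and 0.474). Ovol1, Ascl2 and Tfap2c, the next by p, differed by -0.77, -0.14 and -0.13 without passing. Ovol1 passed without replicate 2 of both groups (-1.02, adjusted p = 0.00776) and, in the fit without the block, without caNFATc1 replicate 2 (-1.05, adjusted p = 0.0486).

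**Figure D4:**
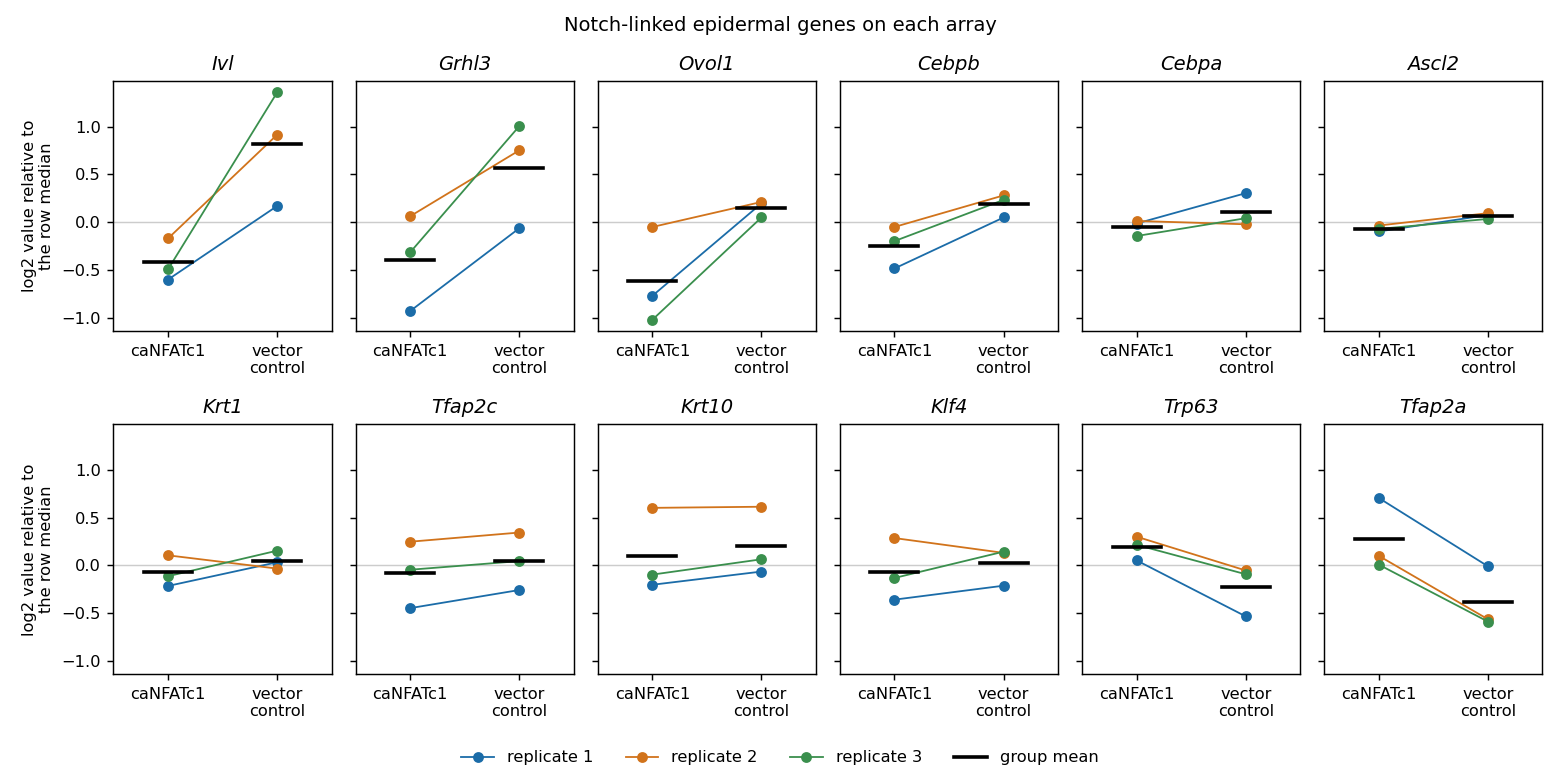
Log2 value relative to the row median (y axis) of 12 Notch-linked epidermal genes on each of the 6 arrays, caNFATc1 left and vector control right in each panel, ordered by group difference from Ivl (-1.24) to Tfap2a (0.66); lines join arrays with the same replicate number and black bars are group means (n = 3 each). Ivl, Grhl3, Cebpb, Trp63 and Tfap2a are the genes that passed with the replicate block.

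Markers of other cells and of division were followed beside these genes. Of 12 fibroblast markers 7 had a positive difference, against 47.4% of all genes. Only Col3a1 of the 12 rose (1.20 ± 0.19, adjusted p = 0.0298, and 0.108 without the block), against 3.73% of all genes. Limma with the block had 2 of the 12 higher and 0 lower at an unadjusted p under 0.05. Among all genes those shares were 11.7% and 9.78%. The mean of the list was 0.02, 0.06 and 0.49 on the caNFATc1 arrays and 0.04, -0.03 and -0.08 on the vector control arrays, so caNFATc1 replicate 3 was the high array. Col3a1 differed by 1.33, 0.62 and 1.67 in the 3 pairs. Of 9 melanocyte, 9 endothelial and mural and 9 immune markers, limma called 0 with the block, and 0 had an unadjusted p under 0.05. Among all genes those shares were 6.11% and 21.5%. All 11 measured markers of dividing cells had a negative difference, as did 10483 of all 19935 genes. The median of the 11 was -0.60, and 3 fell, against 2.38% of all genes. These were Bub1, Mcm5 and Mki67, and none of them passed without the block (adjusted p = 0.173, 0.118 and 0.315). Limma with the block had all 11 markers lower at an unadjusted p under 0.05, against 9.78% of all genes. The groups did not overlap for 8 of the 11, against 18.7% of all genes. In a bulk sample fewer cells of a type and less RNA per cell cannot be told apart. Whether fewer dividing cells or more fibroblast-type RNA had a part in the changes of Jag1 and the other Notch genes was not tested.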

How the data were processed

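Total RNA of 6 cultures was measured on single-colour arrays with biotin-labelled cDNA. The authors deposited 1 table of log2 values, and made with RMA on build mm8, per the submitters' processing notes. Software versions, row filters and the centring step are not stated. The median of each row was 0 within 1e-06, so brightness is lost and dim rows could not be filtered. That the logarithm has base 2 rests on RMA. The number of arrays limits the precision. Groups and replicate numbers come from the sample titles.

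Rows were named through the platform annotation (21780 rows with 1 symbol, 1605 with several, 5430 not listed), with symbols looked up by Entrez number in the GRCm38.p6 gene table, where 91 numbers were not found and 0 symbols changed. Rows of a gene were averaged, giving 19935 genes. The comparison used limma 3.58.1 (R 4.3.3, lmFit and eBayes), 2-sided, with the replicate number as a block, because the rule for these genes asks for pairs. Same-numbered arrays deviated together (r = 0.71, 0.61 and 0.57 over genes for replicates 1, 2 and 3, each above the limit of 0.1; the other pairings ran from -0.60 to 0.18), while no label says that equal numbers share a culture. In data simulated with the spread of this comparison over 19935 genes, 74 of 100 genes changed by 1 log2 unit and 97 of 100 changed by 2 were recovered. Only these genes were changed there, fewer than the 1219 called in the data, and no smaller change was simulated. Members and lists were chosen with earlier results of these data known. Named genes are the 10 members, list genes past the test and the next 3 by p, the 3 genes most like each called member (predicted genes left out), Rcan1 and Nfatc1, and others said to be chosen after their values were seen. Hey2, Hes5, Rbpj, Krt1, Krt10, Notch4, Dll4 and Xist are named outside this rule.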

Additional observations from a re-analysis of the deposited data

How the results depend on the processing

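With the replicate block kept, Jag1 passed under all 9 alternatives (other rules for rows, array scaling, a robust prior, array weights and pairs left out; adjusted p 0.0148 to 0.0485, difference 0.76 to 1.28). Without the block it passed in 0 of 7 (0.108 to 0.278). Without the replicate block 0 members, 0 of the 70 other pathway genes and 0 epidermal genes passed, and over all genes 41 passed higher and 2 lower, against 744 and 475 with it. Leaving out single arrays as well, the counts were 0 for members, 0 to 1 for other pathway genes higher, 0 for epidermal genes higher, 0 to 1 lower, and 0 to 74 higher and 0 to 9 lower over all genes (19, 74 and 2 higher without caNFATc1 replicate 1, 2 or 3, and 6, 2 and 0 without vector control replicate 1, 2 or 3). With pairs left out and the block kept, 1 to 2 members, 4 to 5 pathway genes higher and 0 to 1 lower, 1 epidermal gene higher and 2 to 3 lower, and 509 to 605 genes higher and 202 to 481 lower passed. Array weights gave 2 members higher, and 9 pathway genes higher and 1 lower, while 1018 genes passed higher and 669 lower over all genes. Arrays centred on their medians gave 1 epidermal gene higher, with 723 higher and 434 lower over all genes. Quantile normalization gave 1 epidermal gene lower, with 657 higher and 373 lower over all genes. Tested as single rows, 0 members passed by limma with the block.

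With whole pairs left out, the difference ran from -0.091 to 0.13 for Jag2, from -0.079 to 0.22 for Hes1, from -0.057 to 0.00079 for Heyl and from -0.20 to 0.082 for Lfng, so the sign turned. Without the block, the sign turned for Jag2 without caNFATc1 replicate 2 or 3 or vector control replicate 1 (-0.18, -0.12 and -0.19), for Hes1 and Heyl without vector control replicate 1 (-0.016 and 0.0019), for Lfng without caNFATc1 replicate 1 (0.042), and for Tfap2c without caNFATc1 replicate 1 or vector control replicate 2 (0.058 and 0.025). Array weights turned the sign of Lfng (0.0031). None of these passed in any setting. The cause was not tested.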

Other observations

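In a list of 14 keratinocyte markers 1 rose (Trp63) and 0 fell, against 3.73% and 2.38% of all genes. The median difference of the list was -0.03. Dsp and Krt15 of that list differed far more between replicates than between groups. They were picked because their values had been seen, so they do not describe the list. Dsp, which encodes the desmosome protein desmoplakin, stood at 0.99, 0.11 and -2.58 in caNFATc1 replicates 1, 2 and 3 and at 0.44, -0.11 and -2.78 in the vector control replicates, so both arrays of replicate 3 were low. Krt15, a keratin of basal and hair follicle stem cells, stood at 0.04, -1.81 and -0.04 in caNFATc1 cells. Its vector control values were 0.62, -1.72 and 1.04, so both arrays of replicate 2 were low. The pair differences each kept 1 sign, at 0.54, 0.22 and 0.20 for Dsp and -0.58, -0.09 and -1.08 for Krt15. Neither gene passed by limma with the block (adjusted p = 0.108 and 0.132).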
